A study of Mus musculus with 25 samples.

Results

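Sertoli cells were sought in single-cell libraries of whole mouse testis by the transcripts of 8 genes. A barcode (the sequence tag shared by all transcripts of a droplet) was taken as a Sertoli-marker barcode (called a member from here on) if it held at least 300 transcript molecules (UMIs), if at least 5 of these came from Sparc, Defb19, Clu, Cst12, Cst9, Ctsl, Wfdc10 and Aard together, and if these 8 genes made up at least 1% of its UMIs. The rule found 1084 of the 40295 barcodes with at least 300 UMIs (2.69%), in all 21 libraries of whole testis. Because the levels of the 8 genes chose the barcodes, their own levels are given as a description only.

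The study profiled testes of wild-type mice and of strains with defects of spermatogenesis by Drop-seq, in which transcripts are captured at their 3′ ends and counted once each. Wild-type (WT) mice were C57BL/6 and gave 11 libraries, from 3 months 1 day to 9 months 14 days of age. Mlh3-/- mice (6 libraries, from 2 months 21 days to 8 months 30 days) and Cul4a-/- mice (2 libraries, 1 month 18 days and 1 month 21 days) had a B6;129 background by their labels. CNP mice (2 libraries, 2 months 14 days and 2 months 16 days) were C57BL/6 and carried CNP eGFP BAC TRAP, a transgene built to tag ribosomes under the control of Cnp. These are the ages of the labels, and the study's own sample list gives the 2 pairs of ages for Cul4a and CNP the other way round, so which of these strains was the younger is uncertain. The mutations were not restricted to Sertoli cells by any label, and genetic background and genotype cannot be told apart in the Mlh3 and Cul4a comparisons, nor can age and genotype for Cul4a and CNP, which were all younger than every WT animal by either source. Mlh3 replicates 2 and 3 carried the same age, and no label said whether they came from 1 animal. The labels tie no 2 libraries to 1 culture or animal otherwise, so the p-values measure the spread between these libraries.

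Sertoli cells are the somatic cells inside the seminiferous tubule. They hold the germ cells in pockets of their cytoplasm, feed them, clear the residual bodies and dying germ cells by phagocytosis, and seal the tubule by the tight junctions of the blood-testis barrier. They answer to follicle-stimulating hormone and androgen and secrete inhibin, carrier proteins and protease inhibitors. Leydig cells, which lie outside the tubules, make testosterone. Of the 8 genes, Sparc encodes a secreted matrix protein, Clu clusterin, a secreted chaperone, Ctsl the protease cathepsin L, Cst12 and Cst9 cystatins (inhibitors of cysteine proteases), Wfdc10 a whey acidic protein-type protein and Defb19 a defensin.

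The libraries held between 100 and 3313 barcodes of at least 300 UMIs. The Sertoli-marker barcodes of a library summed to between 1530 and 831573 UMIs, so genes could be compared between strains in the 11 libraries with at least 10 such barcodes. A barcode sequence was found in more than 1 of these libraries 1087 times over the 210 pairs of libraries (at most 27 in a pair), and 1 of these was a Sertoli-marker barcode in both. WT replicates 1 and 2 were dissociated with enzymes and all other whole-testis libraries mechanically. WT replicates 1 and 3 and Mlh3 replicates 1 and 2 were sequenced on a MiSeq and the others on a HiSeq. Mlh3 transcripts were not lower in the Mlh3 libraries (26.2 to 86.6 CPM, the UMIs of a gene scaled to a fixed total of UMIs per library) than in WT (10.9 to 72.9 CPM), nor were Cul4a transcripts in Cul4a (49.0 to 54.5 CPM) below those in WT (5.60 to 43.8 CPM). These 3′ tags can lie outside the altered part of a gene, so the values check no label.

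Sertoli-marker barcodes were far more frequent in Mlh3 than in WT testis. Their share of the barcodes ran from 0.101% to 2.55% over the 11 WT libraries, with a median of 0.311%. The 6 Mlh3 libraries had shares of 8.64%, 10.5%, 45.8%, 6.04%, 6.89% and 7.00%, in the order of their replicate numbers. Every Mlh3 library lay above every WT library, and Mlh3 replicate 3 stood apart from the other 5. The mean was 14.2% ± 15.6 in Mlh3 (SD, n = 6) against 0.569% ± 0.703 in WT (SD, n = 11), a difference of 13.6 percentage points (two-sided exact permutation test over libraries, p = 8.08e-05, the smallest that 12376 regroupings can give, 0.000242 after Benjamini-Hochberg adjustment over the 3 strains). Without Mlh3 replicate 3 the difference was 7.25 points (exact permutation, adjusted p = 0.000687).

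Among the HiSeq libraries of mechanical dissociation, the share was 16.4% ± 19.6 in Mlh3 (SD, n = 4) against 0.279% ± 0.143 in WT (SD, n = 8; exact permutation, adjusted p = 0.00606). After thinning each barcode to 300 UMIs it was 6.09% in Mlh3 against 0.427% in WT. Mlh3 testes lack the elongating spermatids that fill WT libraries, so the 2 shares have denominators of different makeup, and more Sertoli cells and fewer other cells cannot be told apart.

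The 2 Cul4a libraries had shares of 1.01% and 2.43%, and the 2 CNP libraries of 0.433% and 0.697%. WT replicate 2, at 2.55%, was above both Cul4a libraries, and the CNP libraries lay within the WT range. The Cul4a mean exceeded that of WT by 1.15 percentage points (exact permutation, adjusted p = 0.0769), where the smallest unadjusted p that 2 against 11 libraries allow is 0.0128. Without WT replicate 2 the difference was 1.35 points (exact permutation, adjusted p = 0.0227), and among HiSeq libraries of mechanical dissociation it was 1.44 points (exact permutation, adjusted p = 0.0333). The CNP mean differed from that of WT by -0.00346 points (exact permutation, adjusted p = 0.974).

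**Figure D1:**
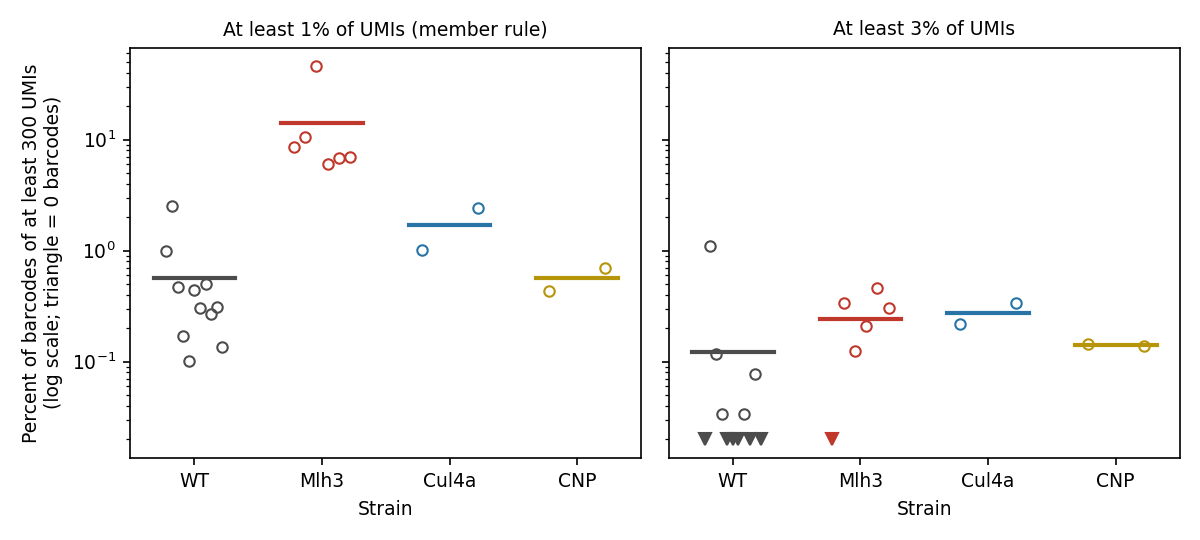
Percent of barcodes of at least 300 UMIs that passed the Sertoli rule, on a log axis, with 1 circle per library and a line at the strain mean; the left panel uses the rule as stated (at least 1% of UMIs from the 8 genes) and the right panel the same rule at 3%, with triangles for libraries with 0 barcodes. At 1% the 6 Mlh3 libraries lie above all WT libraries, and at 3% the highest library is WT replicate 2 (1.09%), while the other 10 WT libraries lie at or below 0.118%, under both Cul4a and both CNP libraries and 5 of the 6 Mlh3 libraries.

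Most Sertoli-marker barcodes were close to the threshold. The median share of UMIs from the 8 genes was 1.47% in WT, 1.28% in Mlh3, 1.61% in Cul4a and 1.65% in CNP Sertoli-marker barcodes, and 936 of the 1084 (86.3%) were below 2%. In Mlh3 replicate 3, 188 members lay between 1% and 1.2% and 180 further barcodes between 0.8% and 1%. Only 53 barcodes in all reached 3%: 11 in WT, 24 in Mlh3, 16 in Cul4a and 2 in CNP. At that threshold, which was added after the data had been seen, the share was 0.240% ± 0.164 in Mlh3 (SD, n = 6) and 0.123% ± 0.324 in WT (SD, n = 11), and the difference did not pass (exact permutation, adjusted p = 0.748). It was 0.277% in Cul4a (exact permutation, adjusted p = 0.748) and 0.142% in CNP (exact permutation, adjusted p = 0.962). That WT mean rested on 1 library. WT replicate 2, dissociated with enzymes, held 6 of the 11 WT barcodes (1.09% of its 549), and the other 10 WT libraries held 0% to 0.118%. Without it the WT share was 0.0264% ± 0.0413 (SD, n = 10), and all 3 strains exceeded it, Mlh3 by 0.213 percentage points (exact permutation, adjusted p = 0.00524), Cul4a by 0.251 and CNP by 0.116 points (exact permutation, adjusted p = 0.0152 each). Among HiSeq libraries of mechanical dissociation the differences were 0.256 (exact permutation, adjusted p = 0.00606), 0.259 and 0.124 points (0.0222 each).

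The 8 genes were also more frequent outside the Sertoli-marker barcodes of Mlh3. They made up 0.0147% to 0.0573% of the UMIs of the other barcodes in WT, 0.0485% and 0.0499% in Cul4a and 0.105% to 0.569% in Mlh3, highest in replicate 3. A droplet holds free RNA from broken cells along with its own cell, and the part of free RNA in the Mlh3 share was not tested. More than 10% of UMIs were mitochondrial in 646 of the 892 Mlh3 members and in 7 of the 84 WT members, against 0 of 100 in Cul4a and 0 of 8 in CNP. The other Mlh3 barcodes were rich in mitochondrial UMIs as well. Their median share was above that of the members in Mlh3 replicates 2 to 5 (21.2% against 15.7% in replicate 4) and below it in replicates 1 and 6. Restricting all barcodes to at most 10% mitochondrial UMIs left a share of 11% in Mlh3 against 0.481% in WT (exact permutation, adjusted p = 0.000242).

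The Sertoli-marker barcodes were shallow. Their median was 614.5 UMIs in WT, 1519 in Mlh3, 1119 in Cul4a and 461 in CNP. Mlh3 replicate 3 held 364 of the 892 Mlh3 members, and without it the Mlh3 median was 696 UMIs. Over the libraries with at least 5 of them, the log2 of the median UMIs per member was 9.22 ± 0.36 in WT (SD, n = 7), 9.96 ± 0.79 in Mlh3 (SD, n = 6; exact permutation, adjusted p = 0.0460) and 10.21 ± 0.22 in Cul4a (SD, n = 2; exact permutation, adjusted p = 0.0460). Among HiSeq libraries of mechanical dissociation, both differences missed the threshold (exact permutation, adjusted p = 0.0667 each). The other barcodes of these libraries had medians of 451 to 656 UMIs in WT, 491 to 2292 in Mlh3 and 1202 and 1706 in Cul4a. Relative to them, the members' depth differed from WT by -0.025 in Mlh3 (exact permutation, adjusted p = 0.907) and by -0.47 in Cul4a (exact permutation, adjusted p = 0.222) on the log2 scale, and neither passed. At this depth, 785 of the 1084 members (72.4%) showed at least 5 of the 8 genes and 142 showed all 8.

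Clu gave the most UMIs of the 8 genes in every strain but CNP, where Sparc led. Of the 8 genes' UMIs it took 19.7% (WT), 30.7% (Mlh3), 25.2% (Cul4a) and 27.4% (CNP). The cystatin Cst9 took 16.9%, 8.24%, 6.71% and 8.33% in the same order of strains, and Sparc took 8.61%, 13.9%, 13.8% and 29.8%. Defb19 took between 16.7% and 21.7%. By library, Cst9 stood at 4997, 1860 and 2661 CPM in the members of WT replicates 2, 6 and 8, at 516 to 1545 CPM in Mlh3 and at 1213 and 1282 CPM in Cul4a. Wfdc10 stood at 1226, 279 and 665 CPM in these WT libraries, at 150 to 380 CPM in Mlh3 and at 331 and 1114 CPM in Cul4a.

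What else these barcodes held changed with the share of the 8 genes. The 9 genes of the study's Sertoli component read here, rule genes left out (Defb36, Gstm6, Gstm7, Gsta4, Chchd10, Ldhb, Tmsb4x, Basp1 and Sin3b), which were chosen on these libraries and are no independent evidence, took more of the UMIs at higher shares. In WT they made up 0.0356% of UMIs in barcodes with under 0.5% of UMIs from the 8 genes, 0.268% in members with 1% to under 1.5% (44 barcodes), 0.894% in those with 1.5% to under 3% (29) and 1.34% in those with 3% or more (11). In Mlh3 the 4 values were 0.0789%, 0.356%, 0.546% and 1.5%, and in Cul4a 0.0456%, 0.400%, 0.801% and 0.979%. Of the 11 WT barcodes at 3% or more, 6 were from WT replicate 2, and the other 5 held the component genes at 0.887%. The sums are over barcodes of all libraries of a strain, so no test was made.

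Transcripts of elongating spermatids took less of the UMIs at higher shares in WT. The genes read for them (Prm1, Prm2, Tnp1 and 5 others, which encode mainly the protamines, transition proteins and tail proteins of condensing sperm) made up 3.62% of UMIs in the WT barcodes under 0.5%, 3.33% in WT members of 1% to under 1.5%, 2.27% in the next class and 0.776% in those with 3% or more. Without WT replicate 2 the 4 values were 3.54%, 3.34%, 3.06% and 2.31%, a smaller decline. Round spermatid genes stood at 0.228%, 0.106%, 0.103% and 0.0633% over the 4 classes, with 0.231% in the last class without WT replicate 2, and pachytene spermatocyte genes at 1.5%, 0.812%, 1.14% and 0.309%, without a steady order. In Cul4a the values were 4.93%, 2.69%, 4.06% and 1.66%. Mitochondrial transcripts went in WT from 1.16% under 0.5% to 8.99% at 3% or more (1.17% to 5.13% without WT replicate 2), and stood at 5.68%, 14.1%, 14.7% and 10.7% in Mlh3.

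The genes read for Leydig cells were Insl3 (the hormone insulin-like 3), Star, Cyp17a1, Cyp11a1, Hsd3b1 and Hsd3b6 of steroid synthesis, and Ptgds. The study lists Ptgds for these cells outside testosterone synthesis. These Leydig genes were highest in the members nearest the threshold. They made up 0.0120% of WT UMIs in barcodes under 0.5%, 1.35% in members of 1% to under 1.5% and 0.111% in members of 3% or more. In Cul4a the values were 0.0217%, 3.82% and 0.226%, and in Mlh3 0.105%, 1.63% and 0.219% (0.0979%, 2.47% and 0.146% without replicate 3). Genes of macrophages stayed at or below 0.0608% in every class of WT, Mlh3 and Cul4a members, and genes of telocytes (interstitial stromal cells) at or below 0.0406%.

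**Figure D2:**
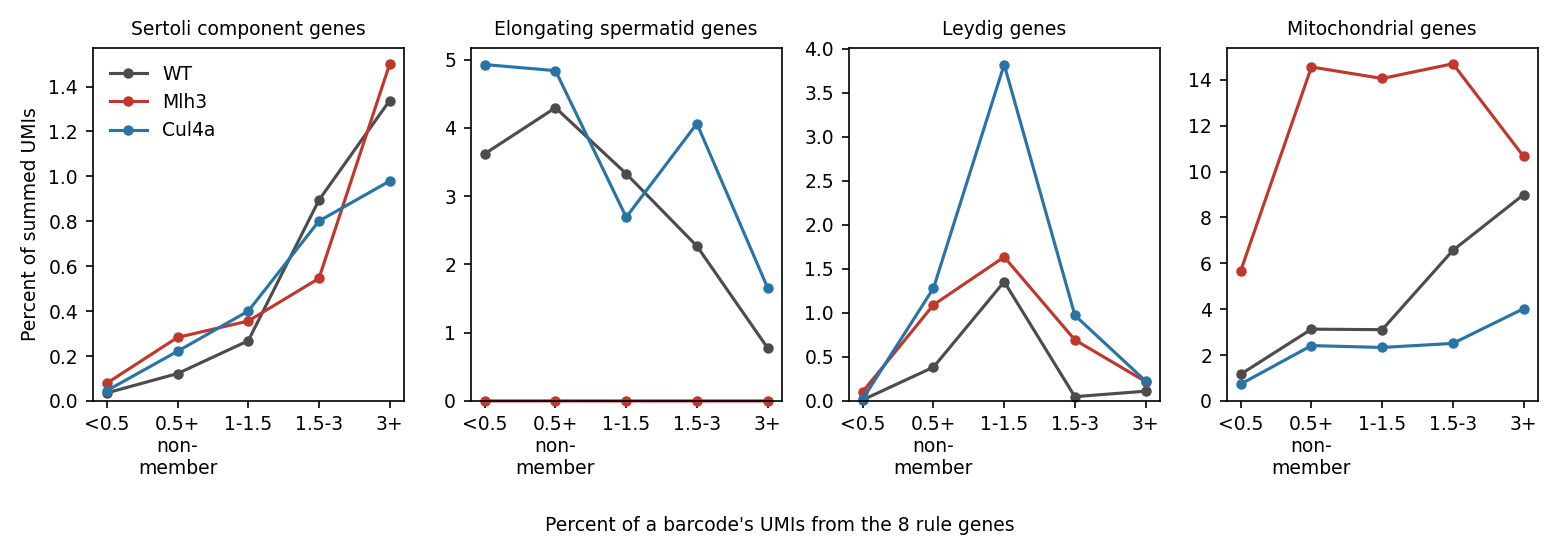
Percent of summed UMIs from 4 groups of genes (the study's 9 Sertoli component genes, 8 elongating spermatid genes, 7 Leydig genes and mitochondrial genes), each panel with its own axis from 0, in barcodes grouped by the percent of their UMIs that came from the 8 rule genes, for WT, Mlh3 and Cul4a. The component genes rise to between 0.979% and 1.5% at 3% or more, while the Leydig genes peak in the class from 1% to under 1.5%.

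The same kind of rule was applied to Leydig cells (at least 5 UMIs from the 7 Leydig genes and at least 1% of UMIs). It was also passed by 8 of the 84 WT members (9.52%), 368 of the 892 Mlh3 members (41.3%; 230 of 364 in replicate 3), 24 of the 100 Cul4a members and 5 of the 8 CNP members. In Cul4a, the 24 members that passed both rules held Insl3 at 13472 CPM, against 69.4 CPM in the other members. They kept Clu at 4629 CPM (4775 in the other members), Defb19 at 3274 CPM (4397) and Sparc at 4233 CPM (1921). They were nearly without Cst12 (56.4 against 2299 CPM) and Cst9 (37.6 against 1759 CPM). Wfdc10 had 0 UMIs in them, where 3 UMIs would be 56.4 CPM, against 1188 CPM in the others.

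The split was of the same form in WT. Its 8 members that passed both rules held Defb19 at 3267 CPM and Clu at 3663 CPM, against 3612 and 3953 CPM in the other WT members. They held Cst9 at 99 CPM (1 UMI) against 3849 CPM, and 0 UMIs of Wfdc10 and Aard, where 3 UMIs would be 297 CPM, against 933 and 1865 CPM. Defb36, a defensin outside the rule, and Cldn11, the claudin of the blood-testis barrier, were at 0 UMIs in these WT and Cul4a barcodes, against 888 and 489 CPM in the other WT members and 956 and 494 CPM in the other Cul4a members. Ctsl stood at 1386 CPM in these WT and 847 CPM in these Cul4a barcodes. Barcodes that passed the Leydig rule alone also held Defb19, at 1240 CPM in WT, 1524 CPM in Cul4a and 1385 CPM in Mlh3.

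In Mlh3 the split was smaller. The 368 members that passed both rules held Cst9 at 759 CPM, Cst12 at 776 CPM and Wfdc10 at 168 CPM, against 1548, 1414 and 386 CPM in the other members. Conversely, the Mlh3 members that did not pass the Leydig rule still held Insl3 at 698 CPM, against 44.4 CPM in WT and 69.4 CPM in Cul4a. These genes chose or split the barcodes, so the values are a description. Leaving out every barcode that passed the rule of another somatic type (Leydig, macrophage, telocyte, peritubular myoid or endothelial) left a Mlh3 share that exceeded that of WT by 6.86 percentage points (exact permutation, adjusted p = 0.000242) and a Cul4a share that exceeded it by 0.777 points (exact permutation, adjusted p = 0.269).

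**Figure D3:**
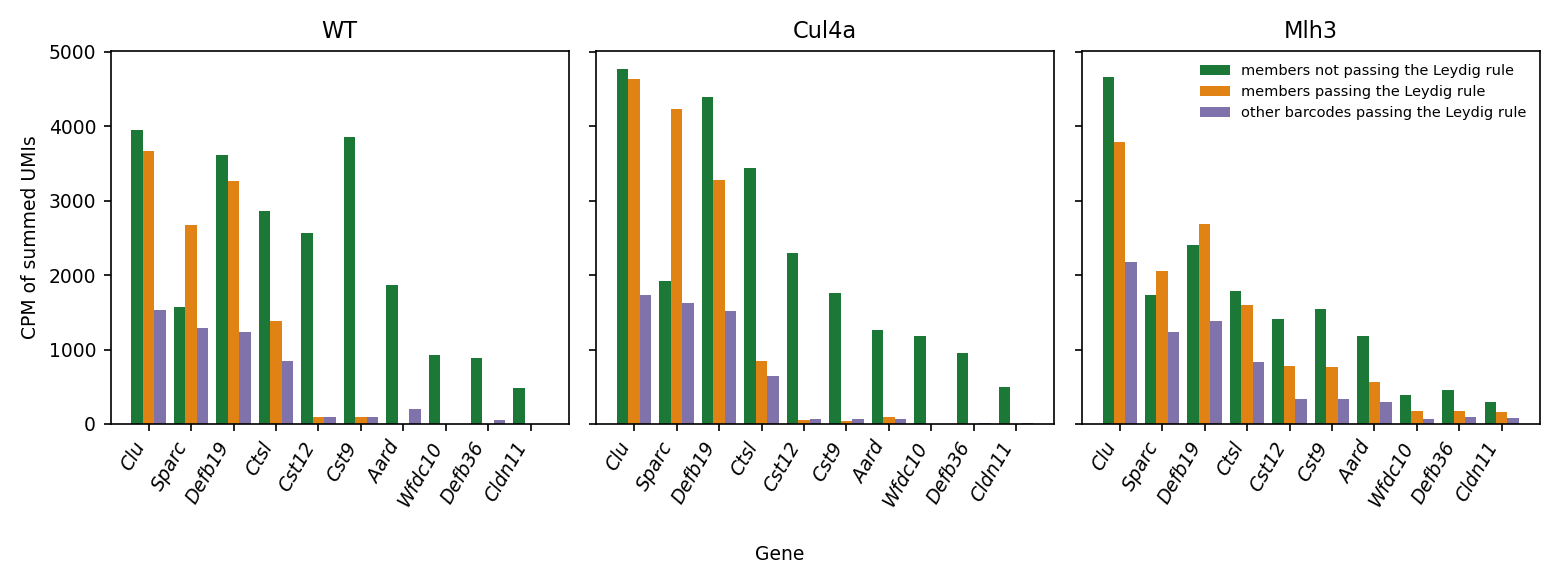
CPM of 8 rule genes and of Defb36 and Cldn11 in WT, Cul4a and Mlh3, from UMIs summed over barcodes of each kind (bars from 0, 1 sum per bar, no error bar). In WT and Cul4a the members that passed the Leydig rule keep Clu, Sparc and Defb19 but have Cst12, Cst9, Aard, Wfdc10, Defb36 and Cldn11 at or near 0, and in Mlh3 they keep part of them.

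Of the genes at or near 0 in the WT and Cul4a members that passed the Leydig rule, Cst12, Cst9, Wfdc10 and Defb36 lie on chromosome 2. Aard, on chromosome 15, and Cldn11, on chromosome 3, were at or near 0 as well, and Defb19, on chromosome 2, was kept. The chromosome therefore did not separate lost from kept genes. The promoters of Cst12, Cst9 and Wfdc10, the lost rule genes with a promoter entry, are given. Each sequence is the 250 bases before the gene's start in RefSeq (GRCm38.p6, plus strand), at chr2:148789115-148789364, chr2:148834897-148835146 and chr2:164655796-164656045 in this order. Letters in capitals mark the core of a SOX site (AACAAT, Sox9 being a Sertoli factor), of a GATA site (AGATAA, for Gata4 and Gata1) or an androgen receptor half-site (AGAACA), searched on both strands.
Cst12: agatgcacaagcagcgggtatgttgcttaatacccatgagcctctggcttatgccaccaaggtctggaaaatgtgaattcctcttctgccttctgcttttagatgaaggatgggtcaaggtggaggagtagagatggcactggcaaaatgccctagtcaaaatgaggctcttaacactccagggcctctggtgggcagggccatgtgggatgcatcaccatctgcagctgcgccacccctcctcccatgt
Cst9: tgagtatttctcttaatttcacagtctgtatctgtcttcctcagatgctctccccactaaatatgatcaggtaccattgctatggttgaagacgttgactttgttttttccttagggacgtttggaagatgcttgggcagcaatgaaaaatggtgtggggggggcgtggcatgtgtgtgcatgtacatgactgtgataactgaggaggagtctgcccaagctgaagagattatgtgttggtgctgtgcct
Wfdc10: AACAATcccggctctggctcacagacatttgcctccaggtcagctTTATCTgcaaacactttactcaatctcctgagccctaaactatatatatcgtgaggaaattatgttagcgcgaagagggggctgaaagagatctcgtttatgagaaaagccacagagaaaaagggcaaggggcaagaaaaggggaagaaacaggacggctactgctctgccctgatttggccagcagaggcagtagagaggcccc

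Wfdc10 held the SOX core on its own strand and the GATA core on the opposite strand, and the other 2 windows held none of the 3 motifs. Among the 5 rule genes with a promoter entry (Sparc and Ctsl besides these), the SOX core was found in 2, the half-site in 1 and the GATA core in 1. Of 32851 mouse promoter windows of this length, 9.42% held the SOX core, 16.1% the half-site and 9.99% the GATA core. A match describes the letters and is no evidence of binding. Defb19, Clu and Aard had no promoter entry.

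Beyond the rule, the 20 genes with the highest ratio of mean CPM in members to mean CPM in the other barcodes of the same 11 libraries had ratios of 8.74 to 12.6, over 3589 genes with at least 100 UMIs in members and found in at least 8 libraries (median ratio 1.07, with 26.6% at 2 or more). They were Defb45, 8030411F24Rik, Defb36, Bpifb5, Sod3, Clec12b, Lpar3, S100a1, Mcee, Etd, Gm3880, Hspb1, Cldn11, Tmem184a, Gm9112, Slc7a4, Ass1, Etl4, Sh3d19 and Ces1d. Since the clustering of transcripts in the chosen barcodes follows from the choice, these ratios are a description. Cldn11 was at 222 to 707 CPM in the 3 WT libraries, 161 to 709 CPM in Mlh3 and 310 and 426 CPM in Cul4a, and Defb36 at 148 to 1509, 99.9 to 772, and 620 and 788 CPM. Both were higher in members than in the other barcodes in all 11 libraries. Sod3, the extracellular superoxide dismutase, and Hspb1, a small heat shock protein, were so as well.

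Chromosome 2 was over-represented. It held 4 of the 8 rule genes and 6 of these 20 genes, against 283 of the 3440 considered genes with a position (8.23%). Defb19 (chr2:152576086-152580312), Defb45 (chr2:152593191-152599399) and Defb36 (chr2:152604327-152612729) lie close together in GRCm38, and so do 8030411F24Rik (chr2:148782009-148785937), Cst12 (chr2:148789361-148793546) and Cst9 (chr2:148835147-148838738). Whether other genes lie between them was not examined. The counts are descriptions, since neighbouring genes of 1 family are not independent.

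Lists of genes by their role in Sertoli cells were then read in the same ratio. Over all 11735 genes with at least 10 UMIs in members the median ratio was 1.12, and 29.2% were at 2 or more. Of 12 transcription factors of Sertoli cells, 10 had that many UMIs, and 8 of these were at 2 or more (median ratio 6.51). Wt1, which maintains Sertoli identity, was at 0, 93.0 and 141 CPM in WT members (in order of value), 33.3 to 536 CPM in Mlh3 and 15.8 and 92.2 CPM in Cul4a. Nr0b1, an orphan nuclear receptor, was at 0 to 186 CPM in WT, 43.3 to 87.8 CPM in Mlh3 and 109 and 110 CPM in Cul4a, and Sox9 at 0 to 94.3, 16.6 to 225, and 16.8 and 47.3 CPM. Each rests on few UMIs, 199 for Wt1, 112 for Nr0b1 and 133 for Sox9 over all members.

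Among hormones, receptors and growth factors, 8 of 17 had at least 10 UMIs and 7 were at 2 or more (median 6.36). Inha, the inhibin alpha subunit, was at 296 to 1320 CPM in WT, 214 to 536 CPM in Mlh3 and 363 and 427 CPM in Cul4a. Amhr2, the receptor for anti-Müllerian hormone, was at 517 to 1791, 418 to 916, and 930 and 1150 CPM. Both were above the other barcodes in all 11 libraries. Amh itself, which is silenced in Sertoli cells after puberty, had 0 UMIs, and Fshr, the receptor for follicle-stimulating hormone, had 7 over all members. For Fshr these data cannot tell a low level from poor capture.

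The secreted proteins and protease inhibitors had 20 of 23 at 2 or more (median 5.07), and the androgen response genes 8 of 8 (median 5.92). Rhox5 and Rhox8, also listed for androgen response, had fewer than 10 UMIs in members and are not counted. The glutathione S-transferases, which detoxify reactive compounds, had 11 of 12 (median 5.60). In WT, Mlh3 and Cul4a, both the secreted proteins and the transferases were highest in members of 1% to under 1.5%, as Leydig genes were. The secreted proteins took 0.980%, 1.12% and 1.46% of UMIs there, against 0.617%, 0.790% and 0.900% at 3% or more. The transferases took 0.943%, 0.900% and 1.36%, against 0.530%, 0.626% and 0.557%. Tsx was at 93.0 to 1084 CPM in WT, 117 to 348 CPM in Mlh3 and 489 and 553 CPM in Cul4a, and Gstm2 at 1037 to 1774, 380 to 2225, and 1229 and 1709 CPM. Junction genes had 12 of 18 at 2 or more (median 3.17), genes of phagocytosis and the lysosome 19 of 23 (median 3.73), genes of lactate and glucose supply 9 of 14 (median 2.61) and cytoskeleton genes 9 of 15 (median 2.36). Gas6, the ligand that bridges dying cells to the receptors Tyro3, Axl and Mertk, was at 186 to 296 CPM in WT, 51.9 to 310 CPM in Mlh3 and 92.2 and 221 CPM in Cul4a. Ldhb, a lactate dehydrogenase subunit, was at 279 to 1556, 225 to 901, and 913 and 930 CPM.

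The retinoid genes as a list were not higher in the members (3 of 9 at 2 or more, median 1.01). Aldh1a1, a retinaldehyde dehydrogenase, was at 141 to 1996 CPM in WT, 329 to 2883 CPM in Mlh3 and 693 and 1190 CPM in Cul4a, above the other barcodes in all 11 libraries. Lists of other cells were read beside them. All 7 Leydig genes were at 2 or more, with a median ratio of 6.54, as high as that of the Sertoli lists, whereas the medians were 1.23 for 8 macrophage genes, 0.479 for pachytene spermatocyte genes, 0.473 for round spermatid genes and 0.637 for elongating spermatid genes. Immediate-early and heat shock genes, which dissociation can induce, had a median of 3.90 (12 of 17).

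To ask how the transcripts of these barcodes differed between strains, UMIs were summed per library and compared with edgeR's quasi-likelihood test over 11635 genes outside the rule, in WT replicates 2, 6 and 8, all 6 Mlh3 and both Cul4a libraries. CNP, with 3 and 5 members, was not tested. The Mlh3 and Cul4a comparisons share the 3 WT libraries. Sums over the members carry whatever Leydig, germ cell and free RNA the barcodes held. In bulk sums of this kind, fewer cells of a type and less RNA per cell cannot be told apart.

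Between Mlh3 and WT, 459 genes changed (3.94%; edgeR quasi-likelihood test, Benjamini-Hochberg adjusted p of at most 0.05), 36 higher (0.309%) and 423 lower (3.64%). With scaling factors drawn from all genes, of which few-UMI genes are most, the split was 185 higher and 374 lower. The count of higher calls moved with the barcodes and libraries used. With members of at most 10% mitochondrial UMIs in the same libraries (added after the data had been seen), 7 genes were higher and 366 lower. With the minimum of 10 such members, which WT replicate 2 misses with 8, 3 were higher and 312 lower, and with libraries of at least 5 members 185 were higher and 577 lower. Leaving out WT replicate 2, 6 or 8 left 9, 12 or 8 higher. The median log2 fold change over all genes was 0.51, and 0.08 over the 913 genes of at least 200 CPM from which the factors were taken. The lower genes included those of spermatids. Prm2, protamine 2, was at 1697, 13576 and 7909 CPM in WT members, at 1.2 CPM (1 UMI) in Mlh3 replicate 3 and at 0 in the other 5 Mlh3 libraries (log2 fold change -12.23, SE 0.78, edgeR adjusted p = 2.20e-24). In the other barcodes of the same libraries the mean was 13318 CPM in WT and 0.633 CPM in Mlh3. All 8 elongating spermatid genes and 6 of 8 round spermatid genes were called lower, of which Lyzl4 lost its call without WT replicate 2 (edgeR adjusted p = 0.286), 6 (0.0525) or 8 (0.352) or Mlh3 replicate 3 (0.101) and Tex29 without WT replicate 6 (0.304). Tnp1, a transition protein that precedes the protamines, was at 1320 to 7067 CPM in WT and 0 in all 6 Mlh3 libraries, at least 1618-fold lower over the group.

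Genes that were at least 2 times higher in members than in other barcodes, over all 11 libraries, numbered 3404, of which 17 were called higher and 5 lower. That ratio includes the libraries compared, so a gene can reach it through the strain where it is high, and 8 of the 17 had 0 UMIs in WT members. These counts therefore support nothing about the members. Of the higher genes named below, Apoe (edgeR adjusted p = 0.00349), Bhmt (0.00468) and Fdxr (0.0303) kept their calls with members of at most 10% mitochondrial UMIs in the same libraries, while Abca1, Lrg1, Atp2b1, Zbtb20, Gpatch8, Timp3, Dcn, Yam1, Smc6, Rock1 and Man1a2 did not (0.0538 to 0.239). With HiSeq mechanical libraries, which leave WT replicates 6 and 8, Fdxr, Abca1, Lrg1, Gpatch8, Timp3, Dcn, Rock1 and Man1a2 did not pass either (edgeR adjusted p from 0.0563 to 0.251), and without barcodes of other somatic rules Fdxr, Lrg1, Timp3 and Dcn did not (0.0522 to 0.183). Of the lower genes named below, Hk1, Gp1bb, Klf4 and Actg2 kept their calls under the mitochondrial limit in the same libraries, and Gm13340, Lgals1, Wfdc6a and Cst8 missed the threshold (0.0784 to 0.653), as did Lyzl4 of the round spermatid genes (0.0954). Where WT replicate 2 fell out as well, Fdxr (0.0876), Gp1bb (0.689), Klf4 (0.129) and Actg2 (0.233) also missed it. Apoe, the apolipoprotein E of lipid transport, was at 0, 372 and 148 CPM in the members of WT replicates 2, 6 and 8, and at 1481, 294, 968, 1379, 1404 and 1219 CPM in Mlh3. Replicate 2 of Mlh3 was the exception that lay within the WT range. The log2 fold change was 3.06 (SE 0.67, edgeR adjusted p = 0.000760), and the call was kept with each library left out in turn. With the replicate number as a block it missed the threshold (edgeR adjusted p = 0.222). In the other barcodes Apoe was at 486 CPM in Mlh3 and 42.8 CPM in WT. In the members that did not pass the Leydig rule it was at 527 CPM in Mlh3 and 123 CPM in Cul4a. In those of WT it was at 14.8 CPM, on 1 UMI, where 3 UMIs would be 44.4 CPM. Members that passed the Leydig rule held it at 1567 CPM in Mlh3, 495 CPM in WT and 4290 CPM in Cul4a. Without barcodes of other somatic rules the log2 fold change was 3.91 (edgeR adjusted p = 0.00447), and without Mlh3 replicate 3 as well it was 3.14 and missed the threshold (edgeR adjusted p = 0.0994).

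Apoe was as high in Cul4a members, at 1544 and 1223 CPM, where the log2 fold change against WT was 3.37 (SE 0.74) and did not pass (edgeR adjusted p = 0.188). Over its 21 alternatives that adjusted p ran up to 1, and it passed in 5, among them the fit of libraries with at least 5 members (edgeR adjusted p = 0.000241) and that with the sequencing platform as a term (0.0360). The difference between Mlh3 and Cul4a was -0.32 (SE 0.49, edgeR adjusted p = 0.829).

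Bhmt, betaine-homocysteine methyltransferase, was at 47.1, 186 and 148 CPM in WT and at 1165, 173, 1007, 1771, 726 and 614 CPM in Mlh3, with replicate 2 again within the WT range (log2 fold change 3.07, SE 0.70, edgeR adjusted p = 0.00115; 0.0614 without WT replicate 2). Like Apoe, it was high in barcodes that passed the Leydig rule alone, at 1270 CPM in Mlh3 and 1438 CPM in WT. In all other barcodes its mean was 312 CPM in Mlh3 and 5.25 CPM in WT. Fdxr, the reductase that feeds electrons to the steroid-making enzymes of mitochondria, was at 0 UMIs in WT and 69.2 to 250 CPM in Mlh3, at least 2.49-fold higher over the group (edgeR adjusted p = 0.0116). Abca1, a cholesterol exporter, was at 0, 93.0 and 73.9 CPM in WT and 117 to 472 CPM in Mlh3 (log2 fold change 2.89, SE 0.88, edgeR adjusted p = 0.0386).

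These calls and that of Apoe rested on few WT UMIs, 6 for Apoe, 5 for Bhmt, 0 for Fdxr and 2 for Abca1. Of the genes named next, Lrg1 and Atp2b1 had 1 WT UMI each, Zbtb20 had 3 and Smc6 had 5. Fdxr lost its call without WT replicate 2 (edgeR adjusted p = 0.105), 6 (0.0554) or 8 (0.0773), and Abca1 without WT replicate 2 (0.460), 6 (0.0910) or 8 (0.144) or Mlh3 replicate 4 (0.0613). Without barcodes of other somatic rules, Fdxr did not pass (edgeR adjusted p = 0.174). In other barcodes their means were 66.7 and 87.9 CPM in Mlh3 and 7.35 and 3.59 CPM in WT.

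Lrg1, a secreted glycoprotein, was at 0, 0 and 73.9 CPM in WT and 104 to 749 CPM in Mlh3 (log2 fold change 3.79, SE 1.04, edgeR adjusted p = 0.0146; 0.282 without WT replicate 2 and 0.128 without WT replicate 6). Atp2b1, a calcium pump of the plasma membrane, and Zbtb20 and Gpatch8 were each highest in Mlh3 replicate 2, at 830, 985 and 951 CPM, and next at 300, 421 and 235 CPM. Gpatch8 had 0 UMIs in WT, so it was at least 2.84-fold higher over the group. All 3 lost their call without WT replicate 2, 6 or 8, with edgeR adjusted p from 0.0658 to 0.293. The other barcodes differed in the same direction. In Mlh3 and WT their means were 95.7 and 0.262 CPM for Lrg1 and 104 and 6.95 CPM for Atp2b1. For Zbtb20 they were 165 and 9.42 CPM, and for Gpatch8 141 and 24.2 CPM. Outside the genes enriched in members, Yam1, Smc6, Rock1 and Man1a2 were called higher, Smc6 at 566 CPM ± 49.7 (SD, n = 6) in Mlh3 against 118 CPM ± 59.7 (SD, n = 3) in WT (log2 fold change 2.49, SE 0.66, edgeR adjusted p = 0.00977). Smc6, which encodes a subunit of a chromosome maintenance complex, lost its call without WT replicate 2 (0.0748) or 8 (0.111), Yam1 without WT replicate 8 (0.0816), and Rock1 and Man1a2, both at 0 UMIs in WT, without any 1 of the 3 (0.0599 to 0.171). In the other barcodes the means in Mlh3 and WT were 795 and 59.2 CPM for Yam1 and 815 and 375 CPM for Smc6. For Rock1 they were 203 and 99.4 CPM, and for Man1a2 154 and 82.3 CPM.

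The 5 genes enriched in members that were called lower, Gp1bb, Gm13340, Lgals1, Gm6222 and Wfdc6a, were high in WT replicate 2, the library dissociated with enzymes. Gp1bb, known as a subunit of a platelet glycoprotein, was at 660, 0 and 148 CPM in WT and 0 to 33.3 CPM in Mlh3 (log2 fold change -3.91, SE 0.68, edgeR adjusted p = 8.30e-06). Without WT replicate 2 it was -1.94 and did not pass (edgeR adjusted p = 0.783), and neither did Wfdc6a (-1.06, 0.783), which also lost its call without WT replicate 6 (0.0984) or Mlh3 replicate 3 (0.103) or 4 (0.0579). Lgals1, galectin 1, and Gm13340 turned to log2 fold changes of 0.66 and 5.22 (edgeR adjusted p = 0.783 each), so the direction of these 2 rested on that library. Lgals1 also lost its call without Mlh3 replicate 3 (0.0777) and Gm6222 without Mlh3 replicate 1 (0.0529). With 10 UMIs in these libraries, Gm6222 fell under the count filter without WT replicate 2 or any of Mlh3 replicates 3 to 6.

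Of the Sertoli lists, few genes passed in the comparison of Mlh3 with WT, where 459 of all 11635 genes tested (3.94%) did. At that share few calls are due in lists of this size, so the counts say little about the lists. The 10 transcription factors tested, the 8 hormones, receptors and growth factors, the 8 androgen response genes, the 18 junction genes, the 15 cytoskeleton genes, the 9 retinoid genes, the 12 glutathione S-transferases and the 9 component genes held 0 calls. Their median log2 fold changes were 1.04, -0.07, 1.08, 0.31, 0.66, 0.58, 0.21 and -0.69, beside 0.51 over all genes. In simulated data the test recovered 24% of 4-fold changes in genes of at least 200 CPM and 2% in lower genes. That simulation assumed the same spread for every gene, which was not estimated from these libraries. Under it, most changes of that size would go uncalled at either level, and 0 calls do not show that these lists were unchanged. Wt1, for example, was at 173 CPM in Mlh3 and 78.1 CPM in WT (log2 fold change 1.17, SE 0.88, edgeR adjusted p = 0.700), and Inha at 369 and 663 CPM (-0.77, SE 0.48, edgeR adjusted p = 0.631).

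Among the 23 secreted proteins and protease inhibitors, Cst8 was lower and Timp3 higher. Cst8, a cystatin, was at 330, 1674 and 665 CPM in WT and 69.2 to 392 CPM in Mlh3 (log2 fold change -1.99, SE 0.49, edgeR adjusted p = 0.00352; 0.508 without WT replicate 6). It was as high in the other WT barcodes, at 797 CPM, against 41.9 CPM in those of Mlh3. Timp3, an inhibitor of metalloproteases, had 0 UMIs in WT and stood at 33.3 to 277 CPM in Mlh3, at least 2.41-fold higher over the group (edgeR adjusted p = 0.0252; 0.126 to 0.266 without 1 of the WT replicates 2, 6 and 8).

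Among 14 genes of lactate and glucose supply, Hk1, a hexokinase, was at 47.1, 372 and 443 CPM in WT and 0 to 37.3 CPM in Mlh3 (log2 fold change -3.0, SE 0.71, edgeR adjusted p = 0.00219; 0.0657 and 0.322 without WT replicate 6 or 8), and its mean in the other barcodes was 578 CPM in WT and 56.3 CPM in Mlh3. Of 13 genes that the study names for amyloid, with the rule gene Clu left out, Apoe was the 1 called. A further 10 were higher and 2 lower without a call, and the median log2 fold change was 3.06, beside 0.51 over all genes. The study took these genes from components that it picked for enrichment in Mlh3 and another strain in these data. Their direction in Mlh3 is therefore no independent evidence. For the 8 macrophage and 8 telocyte genes tested, the median log2 fold change was 4.82 and 4.44, with 0 and 1 called. These 2 lists took at most 0.0237% and 0.00792% of UMIs in any class of WT members. Over the 3 fitted WT libraries, 3 UMIs of a gene would be 65.9 CPM. The 2 medians thus rest on few WT UMIs and do not measure the size of a change. Beside these, Klf4, an early response factor, was lower, Dcn of the telocyte list was higher with 0 UMIs in WT, and Actg2 of the myoid list was lower at 4.86 against 112 CPM, where its other barcodes stood at 0.794 and 273 CPM. Each lost its call without at least 1 WT replicate: all 3 without replicate 2 (edgeR adjusted p from 0.225 to 0.295), and Klf4 and Dcn also without replicate 6 (0.0510 and 0.110) or 8 (0.140 and 0.155), and Dcn without Mlh3 replicate 3 (0.0563).

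**Figure D4:**
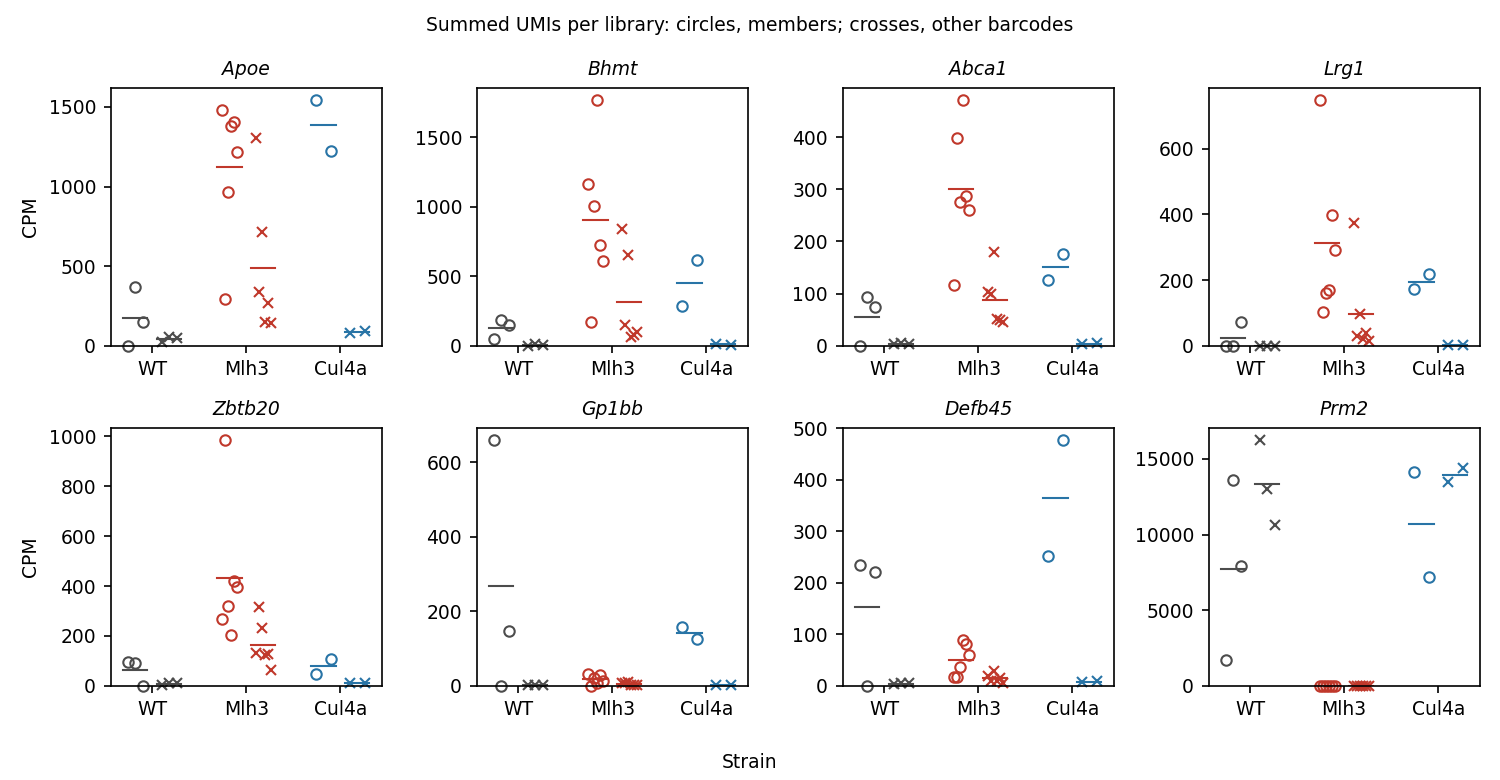
CPM of 8 genes in UMIs summed per library, for the 3 WT, 6 Mlh3 and 2 Cul4a libraries with at least 10 Sertoli-marker barcodes, with circles for the members, crosses for the other barcodes and lines for means, each panel with its own axis from 0. Apoe and Bhmt are higher in 5 of the 6 Mlh3 libraries than in every plotted WT library, Gp1bb is highest in WT replicate 2, and Prm2 is at or near 0 in Mlh3 in members and other barcodes alike.

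Between Cul4a and WT, 0 of the 11635 genes passed edgeR's test, with 397 at an unadjusted p under 0.05, and DESeq2 called 0 as well. In simulated data with the same assumed spread, this comparison recovered 1% of 4-fold changes in genes of at least 200 CPM and 0% in lower genes, so the 0 says little about these barcodes. Germ cell transcripts did not pass in either direction. Prm1, protamine 1, was at 8797 CPM ± 4631 (SD, n = 2) in Cul4a and 5110 CPM ± 3461 (SD, n = 3) in WT (log2 fold change 0.92, SE 0.61, edgeR adjusted p = 0.914). Of the Sertoli genes, Defb36 was at 704 CPM ± 119 against 614 CPM ± 775 (log2 fold change 0.14, SE 0.62, edgeR adjusted p = 1).

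Between Mlh3 and Cul4a, which differ in age as well as genotype, 807 genes changed (6.94%), 90 higher in Mlh3 (0.774%) and 717 lower (6.16%; edgeR quasi-likelihood test). Here too the count of higher calls moved, to 11 (612 lower) with members of at most 10% mitochondrial UMIs in the same libraries and 6 (607 lower) where WT replicate 2 left the joint fit, to 4 without either Cul4a replicate (496 lower without replicate 1, 385 without replicate 2) and to 305 (855 lower) with HiSeq mechanical libraries. Under the mitochondrial limit in the same libraries, Chd8, Phip, Exoc4, Syne2, Atrx, mt-Rnr1, Dync2h1, Lyz2 and Piwil1 among the higher genes named below missed the threshold, and Zmat5, Icam1, Klk1, Ramp1 and Cst8 among the lower (edgeR adjusted p from 0.0506 to 0.191). All 8 elongating and all 8 round spermatid genes were lower, such as Prm1, at 12072 and 5522 CPM in Cul4a and 0 in all 6 Mlh3 libraries. Of the 3404 genes enriched in members, 27 were higher (6 of them with 0 UMIs in Cul4a members) and 9 lower, with the same limit on the ratio. Defb45, the defensin with the highest ratio to other barcodes, was lower in Mlh3, at 16.6, 17.3, 37.3, 89.0, 81.9 and 60.9 CPM against 252 and 478 CPM in Cul4a, without overlap (log2 fold change -2.76, SE 0.51, edgeR adjusted p = 1.14e-05; 0.0729 without Cul4a replicate 2). Its mean in WT members was 152 CPM (0, 222 and 236 CPM in the 3 libraries, in order of value). Gp1bb was lower as well, at 0 to 33.3 CPM against 126 and 158 CPM (log2 fold change -2.82, SE 0.63, edgeR adjusted p = 0.000473), and kept its call with each library left out. With barcodes of at least 3% in libraries with at least 5 of them, which left Mlh3 replicates 5 and 6 and both Cul4a libraries, neither passed (edgeR adjusted p = 0.187 for Defb45 and 0.297 for Gp1bb).

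Among the other lower genes enriched in members were Zmat5, P2rx2, Icam1, Klk1, Svs5 and Ramp1. Icam1, an adhesion molecule of leukocyte and Sertoli cell surfaces, was at 126 and 0 CPM in Cul4a and 0 to 4.35 CPM in Mlh3 (log2 fold change -3.93, SE 1.05, edgeR adjusted p = 0.00564), on 8 and 4 UMIs. Those 8 came from Cul4a replicate 1, without which it was under the count filter. In Mlh3, Icam1 was lower in members than in the other barcodes (means of 1.33 and 2.36 CPM). P2rx2, an ATP-gated channel, was at 31.9 against 154 CPM (log2 fold change -2.24, SE 0.59, edgeR adjusted p = 0.00528; 0.151 and 0.0838 without Cul4a replicate 1 or 2). Zmat5 lost its call without Cul4a replicate 1 (0.0984) and turned to a log2 fold change of 0.17 without barcodes of other somatic rules (edgeR adjusted p = 0.955), Svs5 without Cul4a replicate 1 (0.343) or 2 (0.0700), Klk1 without Cul4a replicate 2 (0.811) or Mlh3 replicate 3 (0.0747), and Ramp1 without Cul4a replicate 1 (0.141) or Mlh3 replicate 3 (0.155).

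The genes higher in Mlh3 that had a ratio of at least 2 over all 11 libraries were led by Zbtb20, Chd8, Nfib, Scaf11, Phip, Exoc4, Syne2 and Atrx. In Cul4a itself, Chd8 (12.6 against 17.5 CPM), Nfib (0 against 1.82) and Exoc4 (0 against 4.62) were lower in members than in the other barcodes. The rest were higher in members in Cul4a too. In the other barcodes, each of these genes also had a higher mean in Mlh3 than in Cul4a, such as Atrx at 144 against 6.60 CPM. Zbtb20, a zinc finger repressor, was at 47.3 and 109 CPM in Cul4a and 205 to 985 CPM in Mlh3 (log2 fold change 2.53, SE 0.65, edgeR adjusted p = 0.00387; 0.279 and 0.118 without Cul4a replicate 1 or 2). Atrx, a chromatin remodeller, was at 15.8 and 193 CPM in Cul4a and 207 to 1124 CPM in Mlh3 (log2 fold change 2.14, SE 0.64, edgeR adjusted p = 0.0191; 0.63 without Cul4a replicate 1). Nfib and Exoc4 had 0 UMIs in Cul4a and were at least 3.87-fold and 2.96-fold higher over the group. Mlh3 replicate 2 was the highest library for Zbtb20, Chd8, Phip, Syne2 and Atrx. Chd8, Nfib, Scaf11, Phip, Exoc4 and Syne2 lost their calls without either Cul4a replicate, with edgeR adjusted p between 0.0929 and 0.551, and Phip also without Mlh3 replicate 2 (0.0732). With barcodes of at least 3%, which left Mlh3 replicates 5 and 6 and not replicate 2, Syne2 and Atrx turned to log2 fold changes of -0.47 and -0.51 (edgeR adjusted p = 0.891 and 0.912), and Nfib did not pass without barcodes of other somatic rules (0.115).

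Among the other genes, mt-Rnr1, the small ribosomal RNA of mitochondria, was at 362 and 394 CPM in Cul4a and 5801 CPM ± 3863 (SD, n = 6) in Mlh3, with Mlh3 replicate 1 at 283 CPM below both Cul4a libraries (log2 fold change 4.05, SE 0.81, edgeR adjusted p = 6.90e-05; 0.0623 without Cul4a replicate 2), where the other barcodes stood at 81.3 and 3848 CPM. Yam1, Rasa1 and Dync2h1 were higher as well, Yam1 losing its call without Cul4a replicate 2 (0.0742) and the other 2 without either Cul4a replicate (0.0528 to 0.395). In the other barcodes these genes had means of 795, 128 and 351 CPM in Mlh3 against 37.2, 36.4 and 110 CPM in Cul4a. Of the Sertoli lists, 0 transcription factors, hormone and receptor genes, androgen response genes, cytoskeleton genes, glutathione S-transferases and component genes passed, with median log2 fold changes of 0.65, 0.13, -0.83, 0.11, -0.07 and -0.62 beside 0.25 over all genes. Over all 11635 genes tested 6.94% passed, so 0 calls in lists of this size say little. Cst8 (log2 fold change -1.85, edgeR adjusted p = 0.00273; 0.121 and 0.0593 without Cul4a replicate 1 or 2), Tes (-3.59, edgeR adjusted p = 0.000588), a protein of focal adhesions, and Hk1 (-3.07, edgeR adjusted p = 5.85e-06) were lower, and the last 2 kept their calls with each library left out. In the other barcodes Tes stood at 10.9 CPM in Mlh3 and 129 CPM in Cul4a and Hk1 at 56.3 and 311 CPM. In lists of other cells, Lyz2 of macrophages and Piwil1 of pachytene spermatocytes were higher and Actg2, Cd3d and Meig1 lower. Of these, Actg2 kept its call with each library left out, and Lyz2 (0.102 and 0.716), Piwil1 (0.224 and 0.469) and Meig1 (0.379 and 0.175) lost theirs without Cul4a replicate 1 or 2, and Cd3d without replicate 1 (0.0565). Lyz2 also lost its call without Mlh3 replicate 3 (0.0584), and Meig1 without any 1 of Mlh3 replicates 3 to 6 (0.0641 to 0.0814).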

How the data were processed

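Whole testes of the strains were profiled by Drop-seq. The authors aligned the reads with STAR 2.5.3a (GRCm38/mm10, per the submitters' processing notes) and deposited UMI counts per gene and barcode for each library, with no normalization. All deposited values were whole counts. Library totals set the precision: the members of a library held 1530 to 831573 UMIs.

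Barcodes were chosen by the rule in the first paragraph of the results. The members, the gene lists and the markers were chosen with earlier results of these data known, so no list is independent support. Doublets were not removed, and barcodes passing a rule for another somatic type were left out in an alternative.

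Shares and depths were compared over libraries by two-sided exact permutation tests with Benjamini-Hochberg adjustment over the 3 strains for shares and over Mlh3 and Cul4a for depths, where 1 CNP library had enough members. Member UMIs were summed per library (libraries with at least 10 members) and fitted with edgeR's quasi-likelihood test on genes with at least 10 UMIs in the fit, 1 fit for all strains. TMM factors over all genes, as first designed, gave unchanged genes a median log2 fold change of 0.84 in simulated counts of Mlh3 against WT. Factors were therefore taken from genes of at least 200 CPM (0.11 in the simulation). This change was made after the data were seen. In simulated data with 200 of 11643 genes changed 4-fold, 24% (Mlh3 against WT), 1% (Cul4a against WT) and 37% (Mlh3 against Cul4a) of changed genes above 200 CPM were recovered. The counts were drawn once per comparison, with a fixed spread for all genes that was not estimated from these libraries. Recovery at other spreads was not examined.

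Genes were named by rank of adjusted p: per comparison and direction, up to 8 called genes at least 2 times higher in members than in other barcodes and up to 4 of the rest. Called genes of the lists were named as well. The 20 leading genes needed at least 100 member UMIs and detection in at least 8 libraries. Where a group had 0 UMIs, the fold is a bound against 3 counts over the group. Intervals and floors cover counting error only. Positions came from GENCODE vM21 (GRCm38). Alternatives were DESeq2, other scaling and filters, platform, HiSeq mechanical libraries, member minimums, a replicate block, stricter rules and each library left out.

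The tools were R 4.3.3 with edgeR 4.0.16 and DESeq2 1.42.0, and Python 3.11.15 with numpy 2.4.6, scipy 1.17.1 and pandas 2.3.3. The 4 sorted libraries entered no test and are described at the end. A further strain of the study was not analysed here. Some named genes are not reported here.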

Additional observations from a re-analysis of the deposited data

Results flagged for a closer look

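In 11 of 40 sets of the 6 Mlh3 libraries that were examined, 1 library stood apart from the other 5 beyond Dixon's critical value. About 1 in 20 sets of independent, normally distributed values would exceed it. Most of these sets were CPM of genes named by their test result, some on few UMIs, and share the same libraries. The count of 11 therefore cannot be set against that rate. The share of Sertoli-marker barcodes was 45.8% in Mlh3 replicate 3, against 6.04% to 10.5% in the others. In Mlh3 replicate 2, the members held Gpatch8 at 951 CPM, Atp2b1 at 830 CPM, Zbtb20 at 985 CPM, Gm13340 at 138 CPM, Chd8 at 536 CPM, Phip at 1003 CPM and Atrx at 1124 CPM, each above the other 5 libraries. Yam1 reached 3711 CPM in Mlh3 replicate 4 and Lgals1 819 CPM in replicate 5, and Prm2 was at 1.2 CPM in replicate 3, on 1 UMI. Mlh3 replicate 2 had 31 members and replicate 3 had 364.

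The sorted libraries, which entered no test, held barcodes that passed the rule. Spermatogonia came from pups of 7 days, dissociated with enzymes and sequenced on a HiSeq. The study's methods describe these pups as B6;CBA with a Pou5f1-EGFP transgene, pooled and sorted for GFP, while the label gives C57BL/6. Spermatocytes and spermatids came from C57BL/6 mice of 2 months 21 days, with mechanical dissociation and a MiSeq. In sorted spermatogonia they were 10 of 292 barcodes (3.42%, where a count of 3 would be 1.03%), of which 7 held at least 3% of their UMIs in the 8 genes and 0 passed the Leydig rule. In sorted secondary spermatocytes they were 7 of 87 (8.05%, against 3.45% for a count of 3), and all 7 also passed the Leydig rule.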

How the results depend on the processing

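The values below limit the results. With barcodes of at least 3% of UMIs from the 8 genes, the Mlh3 share exceeded that of WT by 0.116 points and no longer passed. This rested on WT replicate 2: with 3% and that library left out the Mlh3 share passed again (0.213 points), and Cul4a (0.251) and CNP (0.116) passed as well. With 3% and HiSeq mechanical libraries the 3 differences were 0.256, 0.259 and 0.124. Both were chosen after the data had been seen. The Cul4a share passed with HiSeq mechanical libraries (1.44 points) and with at most 10% mitochondrial UMIs (1.26). The CNP difference was positive in these (0.286 and 0.0852) and at 3% (0.0186). The depth differences were 0.61 (Mlh3) and 1.09 (Cul4a) with HiSeq mechanical libraries and missed the threshold, and relative to the other barcodes they were -0.025 and -0.47, neither passing. Leaving out 1 library gave share differences of 7.25 to 15.2 points (Mlh3), 0.444 to 1.86 (Cul4a) and -0.136 to 0.195 (CNP, changing sign without WT replicate 1, 0.0397, or 2, 0.195, or CNP replicate 1, 0.129), where 1 remaining Cul4a or CNP library has no test. It gave 279 to 500 genes for Mlh3 against WT (279 without WT replicate 6, 280 without 8), 389 to 962 for Mlh3 against Cul4a (500 without Cul4a replicate 1, 389 without 2) and 0 for Cul4a against WT, a lone library being taken to vary like the others.

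For Mlh3 against WT, libraries with at least 5 members gave 762 genes. For Mlh3 against Cul4a, edgeR's own filter gave 421 and no filter 1343, and barcodes of at least 3% in libraries with at least 5 of them gave 35, with 2 Mlh3 libraries left and 1391 genes tested. For Cul4a against WT, factors from all genes gave 3, the platform as a term 1, no mitochondrial or hemoglobin genes 1, at least 5 members 4, and these without WT replicate 2 and Mlh3 replicate 3 gave 1. The cause of these shifts was not tested. The fit with the replicate number as a block gave 119 genes for Mlh3 against WT (4 higher, Apoe at edgeR adjusted p = 0.222), 246 (12 higher) for Mlh3 against Cul4a and 0 for Cul4a against WT. Same-numbered deviations correlated at 0.0134 to 0.408 in 5 pairs (median 0.0940) and others at -0.297 to 0.231 (median -0.0162). So few pairs cannot decide whether the number pairs the libraries.

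Directions turned for Gm13340 (4.83 with HiSeq mechanical libraries, 2.96 with at most 10% mitochondrial UMIs, where WT replicate 2 also fell out, 5.22 without WT replicate 2, 4.36 with at least 5 members but without WT replicate 2 and Mlh3 replicate 3), Lgals1 (0.90, 0.86, 0.66 and 0.61 in the same order), Wfdc6a (0.14 in the last), Zmat5 (0.17 without other somatic rules), Syne2 (-0.47) and Atrx (-0.51), both at 3% with 2 Mlh3 libraries. With 1 library left out, Gm13340 ran from -4.19 to 5.22 and Lgals1 from -2.61 to 0.66. The named genes kept direction and call in 785 of 972 fits for Mlh3 against WT and in 997 of 1133 for Mlh3 against Cul4a. Losses gathered in the block (52 named calls) and the limit of 10% mitochondrial UMIs (34, or 30 in the same 11 libraries), ahead of leaving out either Cul4a replicate (19 each). No WT library had 20 members, so contrasts with WT could not be fitted at that minimum. At 3% WT replicate 2 alone of the WT libraries had at least 5 barcodes (6), and contrasts with WT were not fitted. Depth limits all calls on WT, whose 3 fitted libraries held 10754 to 21212 member UMIs each.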

Other observations

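The 10 barcodes of the sorted spermatogonia library, from pups of 7 days, had the highest median share of UMIs from the 8 genes of all libraries, 3.72%, and a median depth of 2804.5 UMIs. In the 7 with 3% or more, the study's component genes made up 1.25% of UMIs, the secreted proteins 0.434%, the transcription factors of Sertoli cells 0.193% and glutathione S-transferases 0.936%, against 1.34%, 0.617%, 0.127% and 0.530% in the WT members at 3% or more. Without WT replicate 2, which gave 6 of these 11 WT barcodes, the component genes stood at 0.887% in WT, so their order turned on that library. No test was made, since this is 1 library of another age and sort, dissociated with enzymes and, by the study's methods, from mice of another strain with a transgene. Sorted primary spermatocytes held 0 of 106 barcodes that passed, which allows a share of up to 2.83%, and sorted spermatids 1 of 169.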
